A study of Homo sapiens with 4 samples.

Results

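The angiopoietin and TIE genes, 5 in number, were followed in day 8 endothelial and blood cells made from human embryonic stem cells (hESCs), with and without blockade of TGFβ signaling. The genes were chosen by symbol, namely the ligands ANGPT1 and ANGPT2, the receptors TEK (also called TIE2) and TIE1, and the receptor phosphatase PTPRB (also called VE-PTP). Each symbol had 1 row among the 58365 rows of the expression table, and all 5 genes passed the filter on low values (a mean of at least 1 FPKM in at least 1 group) that left 14909 genes for testing.

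The data were 4 RNA-seq libraries of the established hESC line H1, 2 with DMSO and 2 with SB431542 (SB), an inhibitor of the type I receptor kinases of the TGFβ pathway. Per the labels, both groups received 40 ng/ml activinA with 50 ng/ml BMP4 for 2 days, followed by 40 ng/ml VEGF with 50 ng/ml bFGF for 3 days. The last 3 days used VEGF and bFGF at the same doses, and SB431542 was present only in the SB group. The study describes taking CD31-positive cells, a step that the labels leave out. All libraries came from 1 cell line, and the labels do not say whether replicates 1 and 2 were separate differentiations. The study's methods speak in general of independent experiments for each analysis, in a number that does not match the 2 libraries per group here. The p-values therefore measure the spread between these libraries, which may be technical.

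Angiopoietins are secreted ligands of TEK, a receptor tyrosine kinase of endothelial cells and of some blood stem cells. ANGPT1 is the activating ligand and is known from mural cells, megakaryocytes and platelets. ANGPT2 is stored and released by endothelial cells, and acts as a weak activator or as an antagonist of TEK depending on context. TIE1 has no well established high-affinity angiopoietin of its own and modulates TEK in shared complexes, while PTPRB removes phosphate from TEK and from VE-cadherin complexes. The axis is known for vessel stability, and ANGPT1 with TEK also for the maintenance of blood stem cells.

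The expression unit was FPKM, fragments scaled to transcript length and to the mapped fragments of the library, so that levels can be ordered between genes. The receptors stood far above the ligands in all 4 libraries. TIE1 was the most abundant of the 5 genes and lay above 98.4% to 99.0% of tested genes. TEK lay above 88.7% to 93.0% of them, and PTPRB above 68.9% to 77.5%. ANGPT2 lay above 31.1% and 33.8% of tested genes with DMSO and above 40.0% and 40.6% with SB. ANGPT1 lay above 24.5% and 26.2% with DMSO, the lowest place of the 5, and above 46.2% and 53.1% with SB. The order TIE1, TEK, PTPRB, ANGPT2, ANGPT1 in the DMSO libraries thus became TIE1, TEK, PTPRB, ANGPT1, ANGPT2 in the SB libraries. Neighbours in either order did not overlap between libraries of the same group.

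**Figure D1:**
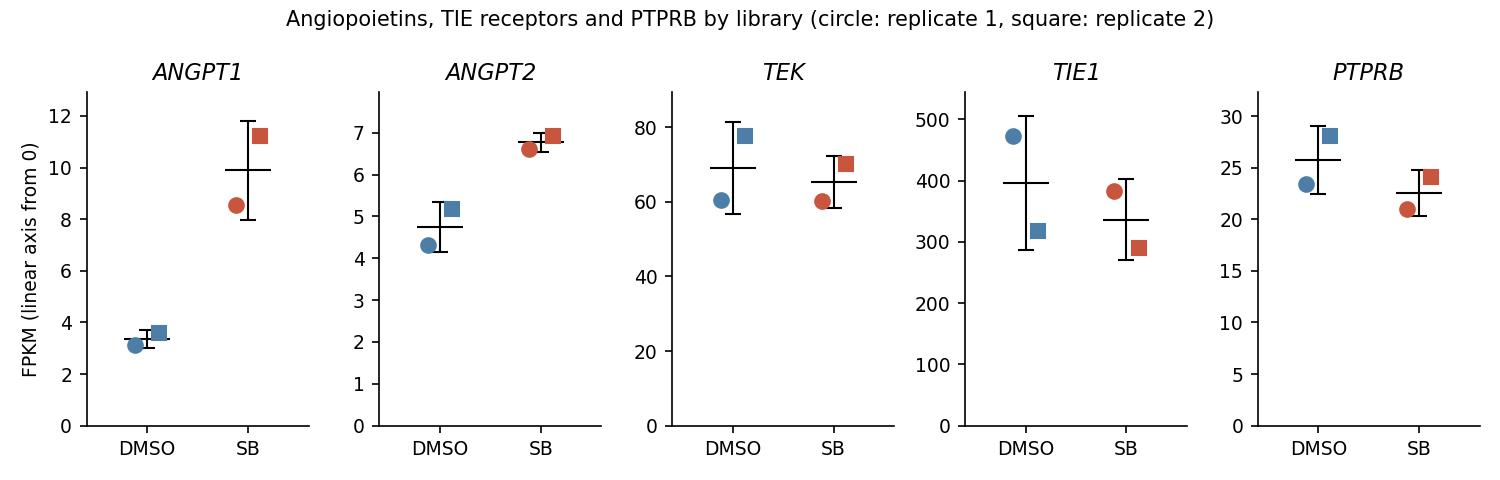
Level of each gene in FPKM on linear axes from 0, with DMSO libraries in blue and SB libraries in red (circle for replicate 1, square for replicate 2), and the bars giving mean and SD of 2 libraries. ANGPT1 and ANGPT2 show both SB points above both DMSO points, while TEK, TIE1 and PTPRB overlap between groups.

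ANGPT1, the activating ligand, differed most. Its level was 3.12 and 3.596 FPKM in the DMSO libraries and 8.54 and 11.2 FPKM in the SB libraries. Both SB libraries lay above both DMSO libraries, and the gap between groups was wider than the gap within either one. The mean was 3.36 ± 0.335 FPKM with DMSO and 9.89 ± 1.91 FPKM with SB (SD, n = 2 each), a ratio of 2.94, with ratios of 2.74 within replicate 1 and 3.13 within replicate 2. On the log2(FPKM + 1) scale, which understates differences of low genes, the difference was 1.31 (SE 0.21, 95% interval 0.78 to 1.85). It had an unadjusted limma p of 0.00158 and ranked 163 of 14909 genes by p, but it missed the threshold once adjusted (limma adjusted p 0.144). A difference of at least 1 in this direction was seen in 1.56% of all tested genes.

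ANGPT2, the context-dependent ligand, was measured at 4.33 and 5.18 FPKM with DMSO and at 6.60 and 6.93 FPKM with SB. The SB libraries were again the higher ones, though the nearest DMSO and SB values were much closer than for ANGPT1. The ratio of means was 1.42 (4.75 ± 0.60 against 6.77 ± 0.233 FPKM, SD, n = 2 each), and 1.53 and 1.34 within replicates 1 and 2. The log2 difference of 0.44 (SE 0.18, 95% interval -0.024 to 0.90) did not pass (unadjusted limma p 0.0586, limma adjusted p 0.529).

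Of the 5 genes, 2 had both SB libraries above both DMSO libraries, an arrangement found in 21.5% of all tested genes. None of the 5 (0 genes) passed the limma test at an adjusted p under 0.05, against 0.134% of all tested genes. At an unadjusted p under 0.05, 1 of the 5 (ANGPT1) was counted, against 9.96% of all tested genes.

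The order of the ligands differed between the groups. Within a library the ratio of ANGPT2 to ANGPT1 does not depend on how that library was scaled. The ratio was 1.39 and 1.44 in the DMSO libraries, so that ANGPT2 was the more abundant ligand transcript in both. With SB it was 0.773 and 0.617, so that ANGPT1 was the more abundant one in both. The mean log2 ratio moved from 0.50 ± 0.038 to -0.53 ± 0.23 (SD, n = 2 each), a difference of -1.03. The ratio is given as values with no test. For a single value of 2 against 2 libraries, the smallest two-sided p of an exact permutation test is 0.333.

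**Figure D2:**
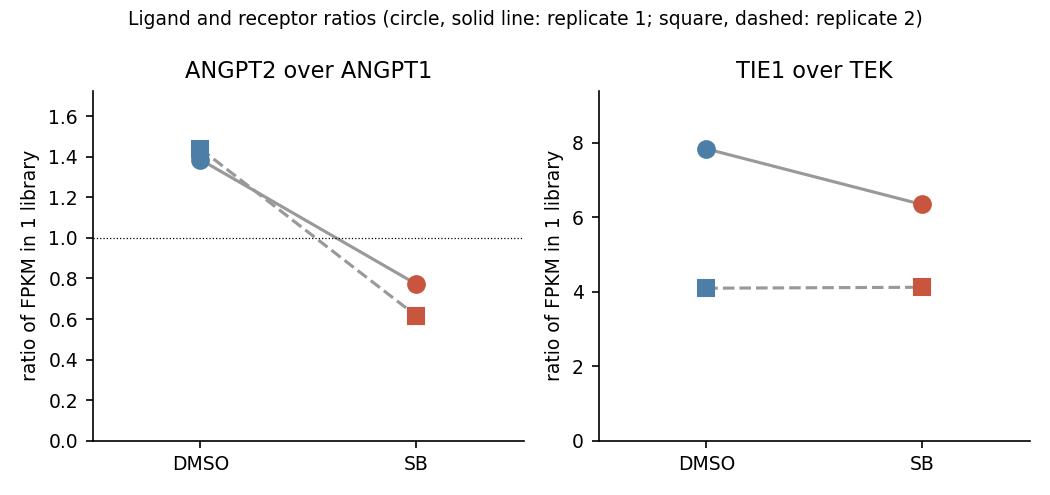
Ratio of FPKM of ANGPT2 to ANGPT1 (left, dotted line at 1) and of TIE1 to TEK (right) in each library, with grey lines joining libraries of the same replicate number. The ligand ratio goes from 1.39 and 1.44 with DMSO to 0.773 and 0.617 with SB, while the receptor ratio sits at 7.83 and 6.34 in replicate 1 and at 4.09 and 4.12 in replicate 2.

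The ligand genes lie on opposite arms of chromosome 8 (GRCh38), both on the minus strand. ANGPT1 (ENSG00000154188.9) spans 107249482 to 107498055, and no other annotated gene overlaps it. ANGPT2 (ENSG00000091879.13) spans 6499651 to 6563409 and lies inside MCPH1, a gene of the opposite strand, which shares 78 of its 6775 exonic bases. MCPH1 was at 6.74 and 8.97 FPKM with DMSO and at 8.82 and 8.78 FPKM with SB. The use of strand in the counting is not stated, so a small part of the ANGPT2 signal cannot be told apart from MCPH1. From the value of 1 fragment in low single-exon genes, ANGPT1 rested on about 308 and 344 fragments with DMSO and about 684 and 1187 with SB, if all came from its longest coding transcript (4353 bases). The counting error of these numbers is between 2.90% and 5.69%, below the difference between groups. For ANGPT2, about 539 to 923 fragments per library were behind the values on the same assumption.

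TEK, the signaling receptor, stood at 60.4 and 77.8 FPKM with DMSO and at 60.3 and 70.3 FPKM with SB. The groups overlapped, and the replicate 1 libraries were nearly equal. The ratio of means was 0.945 (69.1 ± 12.3 against 65.3 ± 7.04 FPKM, SD, n = 2 each), and the log2 difference was -0.074 (SE 0.20, limma adjusted p 0.967). Its sign changed to positive without DMSO replicate 2 (0.11), without SB replicate 1 (0.035) and on scaling to endothelial markers (0.066). On that last scale the median of all tested genes was 0.16, against 0.040 in the main fit. The 95% interval, in linear terms a 0.660-fold to 1.37-fold level on the FPKM + 1 scale, leaves room for moderate differences in both directions.

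TIE1 was at 473 and 318 FPKM with DMSO and at 382 and 289 FPKM with SB. The replicate 1 library was the higher one in each group, and the groups overlapped. Within replicate numbers the SB to DMSO ratio was 0.808 and 0.909. The log2 difference of -0.22 (SE 0.27, 95% interval -0.92 to 0.47, limma adjusted p 0.893) became 0.063 without DMSO replicate 1 and was -0.51 without DMSO replicate 2.

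PTPRB, the phosphatase, was at 23.5 and 28.1 FPKM with DMSO and at 21.0 and 24.1 FPKM with SB. The lower DMSO value lay between the SB values, so the groups overlapped. The SB to DMSO ratio was 0.895 and 0.858 within replicates 1 and 2, and the log2 difference was -0.18 (SE 0.18, 95% interval -0.66 to 0.30, limma adjusted p 0.863). Its ratio to TEK was 0.388 and 0.362 with DMSO and 0.348 and 0.344 with SB, so that both SB ratios lay below both DMSO ratios. The mean log2 ratio differed by -0.12, with SDs of 0.073 and 0.014 (n = 2 each), and was not tested.

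TEK (ENSG00000120156.20) lies on the plus strand of chromosome 9 at 27109141 to 27230175, and its longest coding transcript has 23 exons. TIE1 (ENSG00000066056.13) lies on the plus strand of chromosome 1 at 43300993 to 43323108, also with 23 exons. PTPRB (ENSG00000127329.15) lies on the minus strand of chromosome 12 at 70515866 to 70637440 with 34 exons, and the antisense gene AC025569.1, at 0.785 to 0.939 FPKM, shares 7.15% of its exonic bases. Each of these 3 genes rested on about 4974 fragments or more per library, under the same assumption as for the ligands. The stretches upstream of both TIE family receptor genes are shown because these receptors differed several-fold in level while neither passed the test between groups. They come from the RefSeq promoter table (GRCh38.p14, which held no entry for PTPRB), are written 5′ to 3′ on the plus strand, and cover only the part before the gene start in the files. TEK is chr9:27108975-27109140, TIE1 is chr1:43300732-43300981, and capitals mark the ETS core GGAA or its reverse complement TTCC, the letters bound by ETS factors of endothelium.
TEK: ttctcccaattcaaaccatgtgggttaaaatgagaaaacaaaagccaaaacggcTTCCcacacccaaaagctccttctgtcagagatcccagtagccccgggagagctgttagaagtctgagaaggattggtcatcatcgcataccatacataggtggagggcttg
TIE1: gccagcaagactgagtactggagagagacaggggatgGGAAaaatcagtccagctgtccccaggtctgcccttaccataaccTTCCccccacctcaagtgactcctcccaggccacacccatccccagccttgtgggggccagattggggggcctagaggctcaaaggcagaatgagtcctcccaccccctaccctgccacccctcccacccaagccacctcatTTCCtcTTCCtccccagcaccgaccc

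The TIE1 stretch of 250 bases held the ETS core 4 times on both strands together. Of the 35116 promoters of the table, 34.3% held it at least as often in a window of that length. The TEK stretch of 166 bases held it once, as did 83.4% of promoters or more often. The SMAD box (AGAC or GTCT) was found 3 times in TIE1, with 20.9% of promoters holding at least as many, and 1 time in TEK (65.1%). The E-box CANNTG was found 2 times in TIE1 (28.3%) and 1 time in TEK (48.4%). The forkhead core (TGTTT or AAACA) was found 1 time in TEK (31.7%) and 0 times in TIE1, and the GATA core (GATA or TATC) 0 times in both. None of these matches overlapped an ETS core (0 in each stretch), and a match of letters is no evidence of binding.

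TIE1 and TEK differed more by replicate number than by treatment. For PTPRB both kinds of ratio were of like size, with SB to DMSO ratios of 0.895 and 0.858. The ratio of replicate 1 to replicate 2 for TIE1 was 1.49 with DMSO and 1.32 with SB, whereas for TEK it was 0.777 and 0.858 and for PTPRB 0.834 and 0.870. The ratio of TIE1 to TEK was therefore 7.83 and 6.34 in the replicate 1 libraries and 4.09 and 4.12 in the replicate 2 libraries, and its mean log2 value moved by -0.15 between groups, less than its SD of 0.66 and 0.44 (n = 2 each). Transcript GC content differed in the same way. It was 60.8% for TIE1, against 45.1% for TEK, 42.4% for PTPRB, 38.7% for ANGPT2 and 36.0% for ANGPT1. Across 13695 tested genes, which share libraries and are not independent, GC content and the log2 difference of replicate 1 minus 2 had a Spearman rho of 0.63. The median of that difference was 0.41 in the 2739 genes richest in GC and -0.28 in the 2739 poorest. The part of GC content in the replicate difference of TIE1 was not tested. For the ligands the replicate ratio was 0.868 and 0.760 (ANGPT1) and 0.836 and 0.952 (ANGPT2), in each case nearer to 1 than the ratio between groups.

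**Figure D3:**
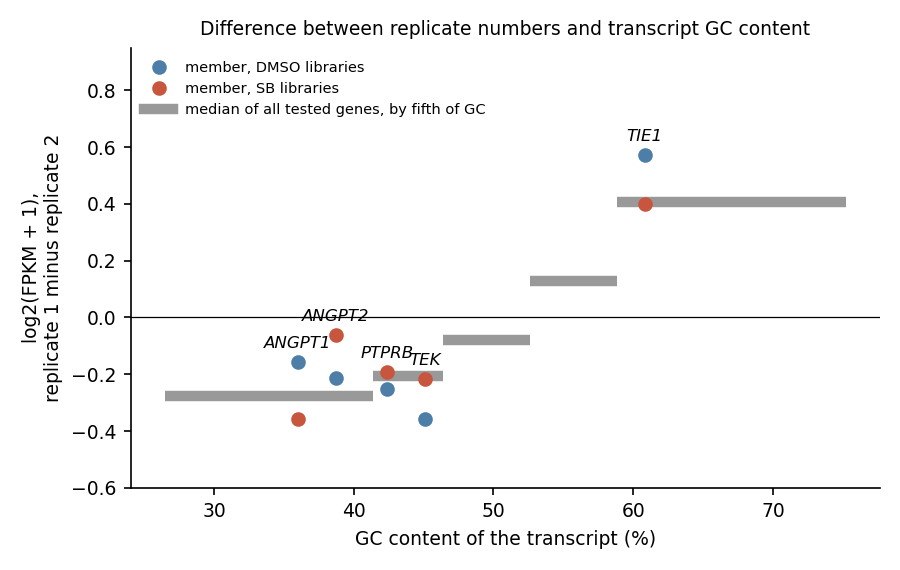
Difference in log2(FPKM + 1) of replicate 1 minus replicate 2 against the GC content of the longest coding transcript in percent, with blue points for DMSO and red points for SB libraries, and grey bars for the median of all tested genes in bins of GC content. TIE1, at 60.8% GC, lies above 0 in both groups, and the 4 other genes, at 36.0% to 45.1%, lie below 0.

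The cell types in the libraries were read from marker lists. Of 12 endothelial markers all were above 1 FPKM, and PECAM1 (CD31) was at 197 and 163 FPKM with DMSO and at 182 and 153 FPKM with SB. The median log2 difference of the endothelial list was -0.14, against 0.040 over all genes tested, and its summed level was 5821 and 3606 FPKM with DMSO and 4225 and 2923 FPKM with SB. Much of that sum was PLVAP, at 3407 and 1645 FPKM with DMSO and 1936 and 991 FPKM with SB. Without PLVAP, an exclusion made after its values were seen, the sum was 2413 and 1961 FPKM with DMSO and 2289 and 1933 FPKM with SB. Megakaryocyte markers, from a cell type known to make ANGPT1, were higher together with it. All 9 had both SB libraries above both DMSO libraries, against 21.5% of all tested genes, their median log2 difference was 1.59, and their summed level was 241 and 235 FPKM with DMSO and 628 and 727 FPKM with SB. Hematopoietic markers summed to 204 and 209 FPKM with DMSO and 381 and 390 FPKM with SB, and 9 of 9 tested ones were separated in this direction (median 0.81), against the same 21.5% of all tested genes. PTPRC (CD45) among them was at most 0.202 FPKM. The study describes the libraries as CD31-positive cells, and their purity is not given in the sources used here. Mural and mesenchymal markers, of cells also known to make ANGPT1, had lower sums with SB. They summed to 541 and 594 FPKM with DMSO and 256 and 269 FPKM with SB, with a median of -0.82 over 11 tested genes, of which 9 had both SB libraries below both DMSO libraries, against 16.0% of all tested genes. PDGFRB, the defining mural receptor, was at 5.06 and 4.29 FPKM with DMSO and 4.15 and 4.002 FPKM with SB. Its log2 difference of -0.16 was small for this list, whose tested genes ran from -2.46 (COL1A1) to -0.043 (MCAM).

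Of these markers 0 hematopoietic, megakaryocyte, mural and endothelial genes passed limma at an adjusted p under 0.05, against 0.134% of all tested genes. At an unadjusted limma p under 0.05 were 8 of 9 hematopoietic and 8 of 9 megakaryocyte markers, all higher with SB. So were 7 of 11 mural markers, all lower, and 1 of 12 endothelial markers, against 9.96% of all tested genes. That endothelial marker was CLDN5, named after its values were seen. It was higher with SB, at 121 and 79.4 FPKM with DMSO and 231 and 177 FPKM with SB. Of the 12 endothelial markers, 2 had both SB libraries above both DMSO libraries, 2 had them below and 8 overlapped. Medians of the other lists were -1.31 for endoderm and liver (7 tested), -1.09 for cardiac (3 tested) and 0.59 for pluripotency markers (3 tested). The endoderm and liver markers AFP, APOA1 and TTR, named after their values were seen, were lower past the adjusted limma test. That test was passed by 0 cardiac and 0 pluripotency markers, and by 0.134% of all tested genes in either direction. At an unadjusted limma p under 0.05 were 6 endoderm and liver markers (lower), 2 cardiac (lower) and 2 pluripotency markers (higher). The share over all tested genes was 9.96%. The part of these cell types in the ANGPT1 difference was not tested. In such bulk libraries, more cells of a type and more RNA per cell cannot be told apart. When each library was scaled to its endothelial markers, the difference was 1.43 for ANGPT1, 0.55 for ANGPT2, 0.066 for TEK, -0.080 for TIE1 and -0.046 for PTPRB, on a scale where the median of all genes was 0.16.

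**Figure D4:**
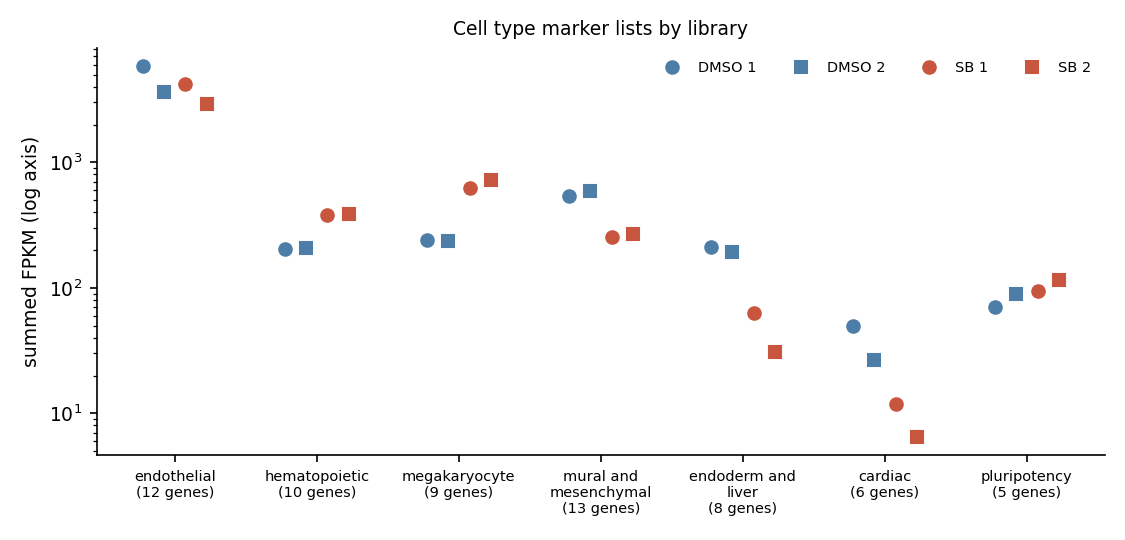
Summed FPKM of each marker list (log axis) in the 4 libraries, with DMSO in blue, SB in red, circles for replicate 1 and squares for replicate 2. The megakaryocyte sum is 241 and 235 with DMSO and 628 and 727 with SB, and the mural and mesenchymal sum is 541 and 594 with DMSO and 256 and 269 with SB.

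Genes with the most similar profile over the 4 libraries were found by the distance between log2(FPKM + 1) values centred on each gene's mean, a description that says nothing of shared control. Nearest to ANGPT1 were the collagen COL24A1 (distance 0.097; 16.1 and 17.4 FPKM with DMSO, 39.9 and 47.0 with SB), the myosin light chain kinase MYLK (0.11) and HEMGN (0.13), a nuclear protein of hematopoietic cells at 0.194 and 0.357 FPKM with DMSO and 2.03 and 2.92 FPKM with SB. Nearest to ANGPT2 were RMND1 (0.025), HMGB3 (0.029) and NUDT1 (0.032). Nearest to TEK were CBL (0.0067), ANKRD10 (0.021) and DUSP3 (0.022), nearest to TIE1 were CADM4 (0.0086), CDR2L (0.0089) and KCTD13 (0.013), and nearest to PTPRB were YPEL5 (0.013), CNTRL (0.013) and CD24 (0.023). With 4 libraries, short distances arise easily for genes that move little.

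The other ligand-like genes were next. Of 9 further angiopoietin family genes only 3 reached the filter, and ANGPT4, the remaining TEK ligand, was at most 0.0388 FPKM. ANGPTL4, a secreted inhibitor of lipoprotein lipase, was at 21.4 and 20.5 FPKM with DMSO and at 7.02 and 6.92 FPKM with SB (log2 difference -1.46, limma adjusted p 0.0803). ANGPTL2, a secreted protein that does not bind TEK, was at 4.77 and 4.94 FPKM with DMSO and at 1.90 and 1.92 FPKM with SB (log2 difference -1.01, limma adjusted p 0.173). Both had no overlap between groups and lay in the direction opposite to ANGPT1. ANGPTL6 was at 1.21 and 1.11 FPKM with DMSO and 1.96 and 2.11 FPKM with SB (log2 difference 0.49, limma adjusted p 0.530). The median of the 3 was -1.01. Of the 3, 0 passed limma at an adjusted p under 0.05, against 0.134% of all tested genes. An unadjusted limma p under 0.05 was found for 2, against 9.96% of all tested genes. In 1 gene both SB libraries lay above both DMSO libraries and in 2 below, against 21.5% and 16.0% of all tested genes.

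Downstream of the receptor, 24 of 24 adaptors and effectors were tested, with a median log2 difference of 0.13. Of these 0 passed limma at an adjusted p under 0.05, and 3 higher and 2 lower genes had an unadjusted p under 0.05. Both SB libraries were above both DMSO libraries in 8 and below in 3. Over all tested genes the shares were 21.5% above and 16.0% below. They were 0.134% at an adjusted and 9.96% at an unadjusted limma p under 0.05, in either direction. DOK2, an adaptor that docks on phosphorylated TEK and is also abundant in blood cells, was at 2.59 and 1.13 FPKM with DMSO and at 12.0 and 6.52 FPKM with SB. Its log2 difference of 1.84 (limma adjusted p 0.239) was the largest of the list. PIK3CB, a catalytic subunit of PI3 kinase, was at 29.6 and 28.7 FPKM with DMSO and 54.0 and 46.8 FPKM with SB (0.77, limma adjusted p 0.245). BIRC5 (survivin) had 0.66 (limma adjusted p 0.385) and the adaptor GRB14 had -0.66 (limma adjusted p 0.452).

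FOXO1, which AKT switches off below TEK and which drives ANGPT2 transcription, was named after its values were seen. It was at 10.02 and 11.9 FPKM with DMSO and 11.5 and 13.1 FPKM with SB, overlapping between groups (log2 difference 0.16, limma adjusted p 0.886). The 15 tested FOXO factors and targets had a median of 0.11. Of the 15, 0 passed limma at an adjusted p under 0.05, against 0.134% of all tested genes. An unadjusted limma p under 0.05 was found for 1, against 9.96% of all tested genes. In 3 both SB libraries lay above both DMSO libraries, in 3 below and in 9 the groups overlapped. The shares over all tested genes were 21.5% above and 16.0% below. TXNIP, a thioredoxin-binding protein and FOXO target, was at 152 and 183 FPKM with DMSO and at 89.7 and 99.2 FPKM with SB (-0.81, limma adjusted p 0.247). Further separated genes included the insulin receptor INSR (-0.59, limma adjusted p 0.571), FOXO3 (0.34, limma adjusted p 0.614) and the repressor BCL6 (-0.29, limma adjusted p 0.797). BCL6 was at 4.36 and 2.94 FPKM with DMSO and 2.58 and 2.92 FPKM with SB, so its replicate 2 libraries were nearly equal.

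Around PTPRB, 6 of 9 related phosphatases and substrates were tested, with a median of -0.073. Limma called 0 at an adjusted or an unadjusted p under 0.05, against 0.134% and 9.96% of all tested genes. Of the 6, 1 had both SB libraries above both DMSO libraries and 2 had them below, against 21.5% and 16.0% of all tested genes. CDH5 (VE-cadherin), its junctional partner, was at 273 and 246 FPKM with DMSO and 224 and 202 FPKM with SB, without overlap (-0.28, limma adjusted p 0.710). CTNND1 (p120 catenin) had -0.29 (limma adjusted p 0.754). PTPRJ, a phosphatase of the same subfamily, was at 2.00 and 1.78 FPKM with DMSO and 2.35 and 3.15 FPKM with SB (0.37, limma adjusted p 0.718), far below PTPRB.

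Among shedding proteases and other binding partners, 8 of 10 genes were tested, with a median of -0.18. Limma called 0 at an adjusted p under 0.05, and 1 higher and 1 lower at an unadjusted p under 0.05. The shares over all tested genes were 0.134% adjusted and 9.96% unadjusted. Both SB libraries were above both DMSO libraries in 2 genes and below in 2, against 21.5% and 16.0% of all tested genes. ITGB3, the platelet and endothelial integrin β3, was at 75.0 and 70.4 FPKM with DMSO and 133.7 and 126 FPKM with SB (0.83, limma adjusted p 0.1996). The integrin chains ITGA5 and ITGAV, described as ANGPT2 partners, had log2 differences of -0.65 (limma adjusted p 0.322) and -0.53 (limma adjusted p 0.592). The protease ADAM10 had 0.36 (limma adjusted p 0.694). LECT2, a described TIE1 ligand, was listed at 0 in all 4 libraries.

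All 18 factors described at the TEK, TIE1 or ANGPT2 promoters were tested, with a median of 0.20. Limma called 0 at an adjusted p under 0.05, and 3 higher and 2 lower at an unadjusted p under 0.05. The shares over all tested genes, in either direction, were 0.134% adjusted and 9.96% unadjusted. Both SB libraries were above both DMSO libraries in 6 genes and below in 2, against 21.5% and 16.0% of all tested genes. In 10 the groups overlapped, and the genes named next were chosen among the separated ones. FOXC2, a forkhead factor described at the ANGPT2 promoter, was at 6.08 and 4.06 FPKM with DMSO and at 0.904 and 0.474 FPKM with SB. It had the largest difference of the list (-1.84, limma adjusted p 0.135) and lay opposite to ANGPT2 in direction. NR2F2, a factor of venous endothelium, had 0.87 (limma adjusted p 0.450), EPAS1 (HIF2α) had -0.67 (limma adjusted p 0.424) and ETS2 had 0.52 (limma adjusted p 0.450).

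**Figure D5:**
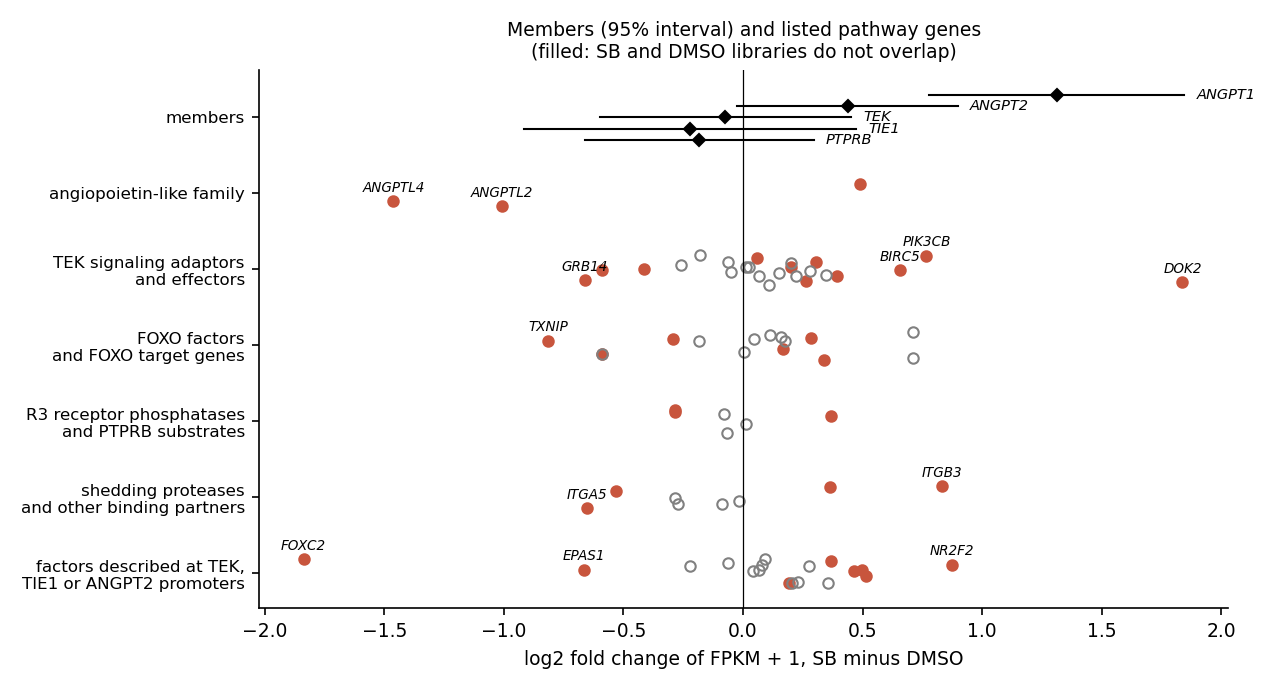
Log2 difference of FPKM + 1, SB minus DMSO, for the 5 genes (diamonds with 95% intervals) and for each tested gene of the 6 lists (circles, filled where SB and DMSO libraries do not overlap). ANGPT1, at 1.31, has the only interval of the 5 that leaves out 0, and DOK2 (1.84) and FOXC2 (-1.84) lie farthest out among the listed genes.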

How the data were processed

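RNA was sequenced from 4 libraries (TruSeq RNA kit, 2 ug of total RNA). The authors deposited FPKM values per gene, in 1 column per library, made by a service company. The submitters' processing notes name BWA, Bowtie, RSEM and the build hg19, whereas the positions in the table are those of GRCh38 (99.8% of identifiers matched with version to GENCODE release 29 had the same position there, with starts counted from 1). Scaling between libraries, filters and strand use are not given in the sources used here.

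The row of each symbol with the highest mean was used. Values were compared as log2(FPKM + 1) for genes with a mean of at least 1 FPKM in at least 1 group, in limma 3.58.1 (R 4.3.3) with empirical Bayes, a mean-variance trend and no term beside treatment. Benjamini-Hochberg adjustment ran over all 14909 genes (threshold 0.05, two-sided). The fit was tested on simulated data with independent noise in each library. That simulation held no difference shared by a replicate number, so it does not cover the replicate differences seen here. FPKM is no count, so no count test was run. In single-exon genes with 1 transcript, 95.0% to 95.8% of values under 10.5 fragments lay within 0.1 of a whole number of fragments, which gave scaling totals of about 24200000, 23500000, 19700000 and 25900000 fragments for DMSO replicates 1 and 2 and SB replicates 1 and 2. Fragment numbers are approximate and cover counting error only. Members, lists (6 pathway and 7 marker lists) and the rule for named genes (up to 4 separated genes with the largest difference per list, and 3 nearest profiles per member) were chosen with earlier results of these data known.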

Additional observations from a re-analysis of the deposited data

How the results depend on the processing

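The log2 difference of ANGPT1 stayed positive under all 12 alternatives (1.13 to 1.52, limma adjusted p 0.0105 to 0.622), as did that of ANGPT2 (0.33 to 0.55, limma adjusted p 0.0838 to 0.9996), and that of PTPRB stayed negative (-0.31 to -0.046). TEK ranged from -0.25 to 0.11 and TIE1 from -0.51 to 0.063 on removal of single libraries, and TEK was 0.066 on scaling to endothelial markers. On that scale the median of all tested genes was 0.16. Within replicates 1 and 2 the log2 difference was -0.0026 and -0.14 for TEK, and -0.31 and -0.14 for TIE1. Signs changed only on removal of a library or on that scale, and the reason was not tested. The ligand ratio difference ranged from -1.20 to -0.87 and that of TIE1 to TEK from -0.62 to 0.32. Replicate numbers were shared by both groups, but the labels do not say that a number marks a common batch. Differences between replicates correlated across genes between the groups (r = 0.53). With the replicate block, 1 of the 5 genes passed (ANGPT1, 1.31, limma adjusted p 0.0105), against 0 in the main fit. Over all 14909 tested genes 1564 passed, against 20. Of the other pathway genes 20 passed, against 0, from the 6 lists with 3, 24, 15, 6, 8 and 18 tested genes. The count over all genes was 0 with no filter (2739 at an unadjusted p under 0.05), 31 with quantile normalization, 10 on scaling to endothelial markers, and 0 to 14 without single libraries (0 without DMSO replicate 1, 14 without DMSO replicate 2, 10 without SB replicate 1 and 9 without SB replicate 2). The cause was not tested. Without the filter, the median of the angiopoietin-like list was 0.0056 in place of -1.01, since more genes near 0 were then counted. With 2 libraries a group, the intervals of TEK, TIE1 and PTPRB leave moderate differences undetectable.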
